A study of Homo sapiens with 24 samples.

Results

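RNA sequencing of SW13 cells, a line from an adrenal cortical carcinoma, was used to compare cells given BRG1 with cells given a GFP control while ERG was present in both. The comparison takes the libraries titled SW13 BRG1 ERG and SW13 GFP ERG, 2 of each, which are 4 of the 24 libraries in the series. All 4 were made from cells that had 48 h with lentivirus and then 2 days of selection with blasticidin and puromycin, and all 4 carried a V5-tagged ERG vector. BRG1 and the control were V5-tagged as well, and the protocol text names the control luciferase where the titles say GFP. Reference groups were SW13 BRG1-K785R ERG (2 libraries), and SW13 BRG1 Empty and SW13 GFP Empty (2 each), in which an empty vector took the place of ERG. BRG1-K785R is an ATPase mutant of BRG1. The duplicates of a group came from separate infections, selections and cultures of the same cell line, with both proteins made from vectors and none of the 4 libraries free of ERG. The question was which genes respond to BRG1 in a BRG1-deficient cell that already makes ERG.

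BRG1, the product of SMARCA4, is the ATPase that drives the BAF (SWI/SNF) chromatin remodelers. These complexes move or eject nucleosomes, and they open enhancers and promoters to transcription factors. ERG is an ETS family factor that is normally made in endothelial and some blood cells and is switched on by gene fusion in many prostate cancers. SW13 cells are known for low or absent BRG1 and for low levels of its sister ATPase, BRM, the product of SMARCA2.

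The 4 libraries held 24590885 and 23960454 counted reads with GFP, and 25022259 and 25385623 with BRG1. Levels are given as CPM, counts scaled to a library of 1000000 reads, and 17018 genes passed the filter on low counts. The spread between duplicates exceeded counting error: the chi-square was 2.32 per degree of freedom for GFP ERG and 11.4 for BRG1 ERG. Markers of the adrenal cortex were missing in part. Of 15 genes listed, CYP11B1, CYP11B2, HSD3B2 and MC2R had no read in the 4 libraries, and NR5A1, CYP11A1 and CYP17A1 stayed under 10 reads in each. The other 8 passed the filter on low counts and summed to 172 to 176 CPM with GFP and 154 to 156 CPM with BRG1. Of 15 blood cell genes 10 stayed under 10 reads, and the T and B cell genes CD3E, CD3D and MS4A1 had none. Of 15 prostate and androgen receptor genes only KLK3, KLK4, TMPRSS2 and TRPM8 stayed under 10 reads, and 10 passed the filter.

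SMARCA4 followed the labels. It stood at 35.2 and 32.8 CPM in the GFP libraries and at 1904 and 2213 CPM in the BRG1 libraries. That is a log2 change of 5.92 ± 0.10 (± approximate standard error, as for every log2 change below), or 60.5-fold (adjusted p = 7.24e-31 by edgeR's two-sided quasi-likelihood test with Benjamini-Hochberg adjustment over all tested genes, the source of every adjusted p below). Reads of the vector and of the chromosomal gene cannot be separated. SMARCA2 stood at 0.202 and 0.0836 CPM with GFP and 2.53 and 2.39 CPM with BRG1, a rise from 5 and 2 reads to 65 and 62 (4.05 ± 0.45, adjusted p = 2.31e-09). ERG itself was read at 1466 and 1589.5 CPM with GFP and 1808 and 2099 CPM with BRG1. It was therefore somewhat higher in both BRG1 libraries (0.35 ± 0.08, 1.28-fold, adjusted p = 0.000247), and the part of this in the changes below was not tested.

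Of the 17018 genes, 10032 (58.9%) were called at an adjusted p below 0.05. BRG1 was higher in 5176 (30.4%) and lower in 4856 (28.5%). Changes of at least 2-fold were uneven: 1908 genes (11.2%) rose and 856 (5.03%) fell by that much, and at 4-fold the counts were 997 and 136. The median log2 change over all tested genes was 0.01. The libraries did not overlap, with BRG1 higher, in 40.8% of genes and, with BRG1 lower, in 39.4%, so lack of overlap alone marks little here.

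Genes that rose started low. Of the 1908 that rose at least 2-fold, 1096 (57.4%) had a mean under 1 CPM with GFP, against 16.2% of all tested genes. Their median level went from 0.597 to 4.23 CPM. Among the 997 with a 4-fold rise the share was 79.2%. The 856 genes with a 2-fold fall started at a median of 6.91 CPM and ended at 2.46 CPM, and 15.8% of them began under 1 CPM. Since the same libraries chose these genes, the shares are a description only. The filter on low counts also bears on them. A gene with few reads in the GFP libraries was kept only where libraries of other groups held more. Among genes that start low, the filter thus leaves more room for rises than for falls. Its part in the contrast with all tested genes and with the falls was not tested. In 13 genes no read was found with GFP while BRG1 gave at least 5 CPM.

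**Figure D1:**
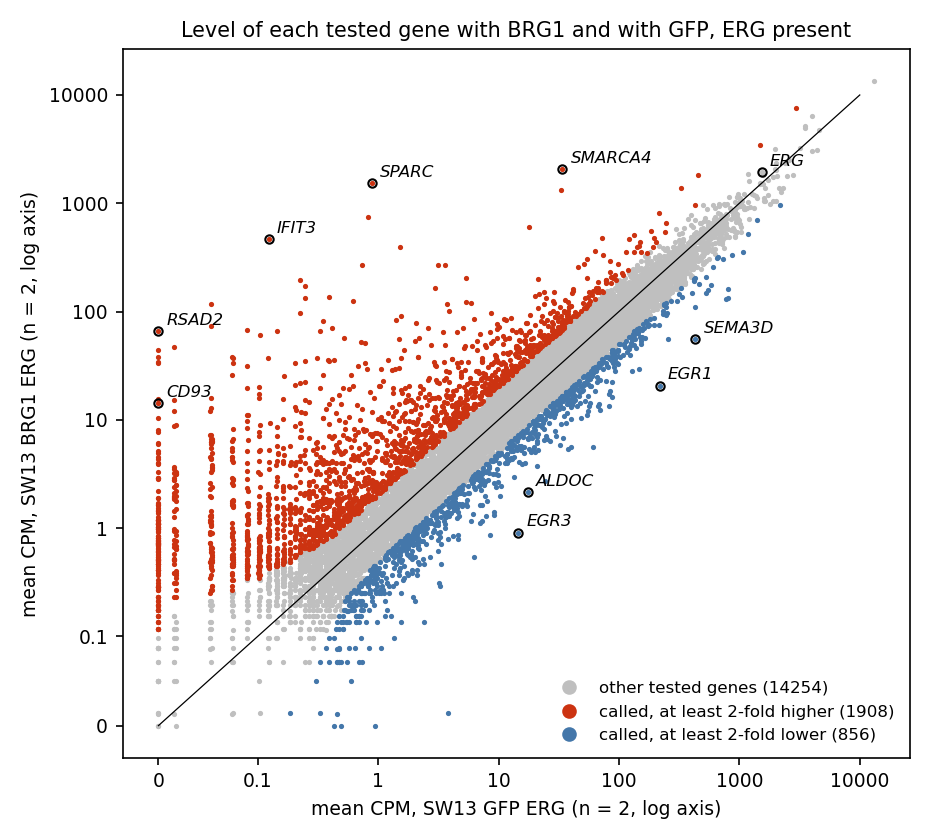
Mean CPM of each of the 17018 tested genes with BRG1 (vertical) against GFP (horizontal), both with ERG and n = 2, on log axes with genes without a read drawn at 0. The 1908 red genes were called and at least 2-fold higher, many of them from the left edge, and the 856 blue genes were called and at least 2-fold lower.

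The largest rises were led by interferon-stimulated genes. Among called genes whose mean over the 4 libraries was 5 CPM or more and whose groups did not overlap, the 12 largest by the fitted change were RSAD2, IFI44, IFI44L, RARRES3, SAMD9L, IFIT3, XAF1, CD93, SAMD9, DDX60L, DDX60 and SPARC. Most of them have no or few GFP reads, so their fitted size and order are uncertain. All but CD93 and SPARC are genes known to be induced by interferons. Promoters of the first 4 of them with a single RefSeq entry and a motif match are shown, each from 250 bases before to 50 after the start of transcription (RefSeq, GRCh38.p14, 300 bases, gene strand, 5′ to 3′). They are shown because these genes moved together. Capitals mark matches on either strand to AANNGAAA, the core of sites bound by interferon regulatory factors (IRF), to the AP-1 site TGANTCA, or to the ETS site CGGAAGT.
IFI44L, chr1:78620198-78620497, plus strand: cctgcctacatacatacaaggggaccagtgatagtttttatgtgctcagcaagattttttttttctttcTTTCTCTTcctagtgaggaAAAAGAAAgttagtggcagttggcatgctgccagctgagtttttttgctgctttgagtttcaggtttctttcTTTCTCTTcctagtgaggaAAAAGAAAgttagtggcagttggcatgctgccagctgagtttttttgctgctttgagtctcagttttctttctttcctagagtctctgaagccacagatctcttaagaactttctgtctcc
SAMD9L, chr7:93148336-93148635, minus strand: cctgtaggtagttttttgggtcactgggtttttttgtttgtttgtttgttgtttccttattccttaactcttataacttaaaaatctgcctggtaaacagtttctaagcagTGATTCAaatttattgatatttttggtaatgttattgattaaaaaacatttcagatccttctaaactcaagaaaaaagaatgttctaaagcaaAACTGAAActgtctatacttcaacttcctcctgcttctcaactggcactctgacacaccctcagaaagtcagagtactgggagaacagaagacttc
SAMD9, chr7:93117930-93118229, minus strand: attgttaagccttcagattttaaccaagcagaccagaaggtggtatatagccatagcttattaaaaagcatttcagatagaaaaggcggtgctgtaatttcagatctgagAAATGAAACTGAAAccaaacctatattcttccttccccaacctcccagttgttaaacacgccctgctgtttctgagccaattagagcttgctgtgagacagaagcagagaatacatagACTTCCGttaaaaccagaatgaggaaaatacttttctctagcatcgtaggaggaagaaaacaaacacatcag
DDX60L, chr4:168480443-168480742, minus strand: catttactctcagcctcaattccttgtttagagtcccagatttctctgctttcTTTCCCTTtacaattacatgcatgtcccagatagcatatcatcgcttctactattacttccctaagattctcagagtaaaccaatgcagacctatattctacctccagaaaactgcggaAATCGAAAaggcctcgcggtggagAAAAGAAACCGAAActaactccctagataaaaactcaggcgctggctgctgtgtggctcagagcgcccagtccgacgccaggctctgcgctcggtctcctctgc

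In these promoters IFI44L and DDX60L held the IRF letters at 4 positions each, SAMD9 at 2 that overlap and SAMD9L at 1. The IFI44L matches lie in a repeated stretch, and 2 of the DDX60L matches overlap, so these are not all separate sites. SAMD9 also held an ETS match and SAMD9L an AP-1 match. The IRF letters were chosen after promoter letters had been seen, in place of a longer form searched first. They were found in 14 of the 15 promoters of the interferon-stimulated list that could be read (93.3%) and in 16.1% of the 8503 promoters of tested genes. A match is a description of letters, not of binding.

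RSAD2, which encodes the antiviral enzyme viperin, had no read in either GFP library and 74.5 and 57.7 CPM with BRG1. IFI44 had none with GFP and 43.9 and 45.0 CPM with BRG1, and its neighbour in name, IFI44L, none and 36.8 and 39.5 CPM. With a floor of 3 reads per GFP library, these rises were at least 535-fold for RSAD2, 360.3-fold for IFI44 and 309-fold for IFI44L. The GFP libraries thus gave no read of any of the 3, and both BRG1 libraries gave reads of all 3.

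RARRES3 (also PLAAT4), a phospholipase induced by retinoic acid and interferon, went from no read to 37.8 and 31.3 CPM (at least 280.0-fold). SAMD9L, an antiviral factor that restrains growth, went from none to 33.5 and 33.5 CPM (at least 271-fold), and XAF1, an interferon-induced partner of XIAP, from none to 15.3 and 15.6 CPM (at least 125-fold). The DExD/H-box helicase gene DDX60L went from none to 8.86 and 12.1 CPM (at least 84.9-fold). DDX60L resembles DDX60, so the split of their reads is uncertain. SAMD9 had 1 and 1 reads with GFP and 2924 and 3130 with BRG1, a ratio of 2847 (95% interval 788 to 23514, counting error only). DDX60 had 1 and 0 reads and then 1224 and 1217, a ratio of 2296 (412 to 90720.0).

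IFIT3, part of the RNA-binding IFIT complex, stood at 0.121 and 0.125 CPM with GFP and 514 and 418 CPM with BRG1 (11.82 ± 0.20, 3623-fold, adjusted p = 7.76e-31). SPARC, a secreted protein that binds collagen, stood at 0.728 and 1.05 CPM and 1418 and 1660.2 CPM (10.76 ± 0.15, 1730.2-fold, adjusted p = 9.3e-33). It had reads in every GFP library, so its fold does not rest on zeros. CD93, a lectin-like receptor of endothelial cells, had no read with GFP and 12.7 and 16.1 CPM with BRG1, at least 117-fold higher. In the libraries without ERG, CD93 had 0 and 0 reads with GFP and 0 and 1 with BRG1. With so few reads elsewhere the fit gave no usable test of that difference (adjusted p = 1).

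The 12 largest falls were EGR3, NAALADL2-AS2, EGR1, ALDOC, SEMA3D, HES7, BHLHE40, UPK1A, SIGLEC10, TTN, NTS and PI15. They were smaller than the rises, from 15.8-fold (EGR3) to 5.95-fold (PI15). EGR3, an immediate early zinc finger factor, stood at 13.4 and 15.5 CPM with GFP and 0.855 and 0.963 CPM with BRG1 (-3.98 ± 0.18, adjusted p = 1.09e-18). Its relative EGR1 stood at 194 and 241 CPM and then 19.4 and 22.0 CPM (-3.39 ± 0.11, 10.5-fold lower, adjusted p = 5.53e-23). In both genes every BRG1 library was far below every GFP library.

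SEMA3D, a secreted axon guidance factor, fell from 423 and 437 CPM to 57.0 and 54.1 CPM (-2.95 ± 0.08, adjusted p = 7.81e-25). NTS, which encodes the peptide neurotensin, fell from 795 and 822 to 158 and 111 CPM (-2.59 ± 0.10), and the peptidase inhibitor gene PI15 from 762 and 788 to 134 and 127 CPM (-2.57 ± 0.08). In these genes no BRG1 library came near a GFP library. HES7, a repressor that acts downstream of Notch, fell from 40.0 ± 0.962 to 5.67 ± 0.337 CPM (mean ± SD, n = 2) and BHLHE40, a repressor tied to hypoxia and the circadian clock, from 37.8 ± 6.05 to 5.38 ± 0.527 CPM. TTN, the giant muscle protein gene titin, fell from 83.0 ± 4.18 to 13.3 ± 2.32 CPM, and the glycolytic gene ALDOC (aldolase C) from 17.5 ± 0.438 to 2.17 ± 0.0408 CPM. The uroplakin gene UPK1A (-2.77 ± 0.20) and SIGLEC10, a sialic acid receptor gene (-2.69 ± 0.21), started under 10 CPM. NAALADL2-AS2 (-3.44 ± 0.15) is an antisense RNA, whose reads cannot be told from those of its partner without strand.

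Promoters of the first 2 falls with a single RefSeq entry and a motif match are given for contrast, in the same frame, with capitals on the GC box GGGCGG or its reverse. These were the only matches there, and a GC box was found in 68.9% of all promoters of tested genes.
ALDOC, chr17:28576846-28577145, minus strand: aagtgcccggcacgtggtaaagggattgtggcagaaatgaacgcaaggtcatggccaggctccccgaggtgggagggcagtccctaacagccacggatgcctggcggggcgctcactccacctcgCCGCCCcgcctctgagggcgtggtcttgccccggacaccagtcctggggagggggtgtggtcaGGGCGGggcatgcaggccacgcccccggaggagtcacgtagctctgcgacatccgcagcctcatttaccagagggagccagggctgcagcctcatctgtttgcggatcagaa
HES7, chr17:8124057-8124356, minus strand: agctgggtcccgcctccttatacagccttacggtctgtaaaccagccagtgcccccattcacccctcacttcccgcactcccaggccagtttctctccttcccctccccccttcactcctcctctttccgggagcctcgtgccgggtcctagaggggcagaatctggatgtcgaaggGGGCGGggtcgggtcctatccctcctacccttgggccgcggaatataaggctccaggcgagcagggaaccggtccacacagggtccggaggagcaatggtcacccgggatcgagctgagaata

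**Figure D2:**
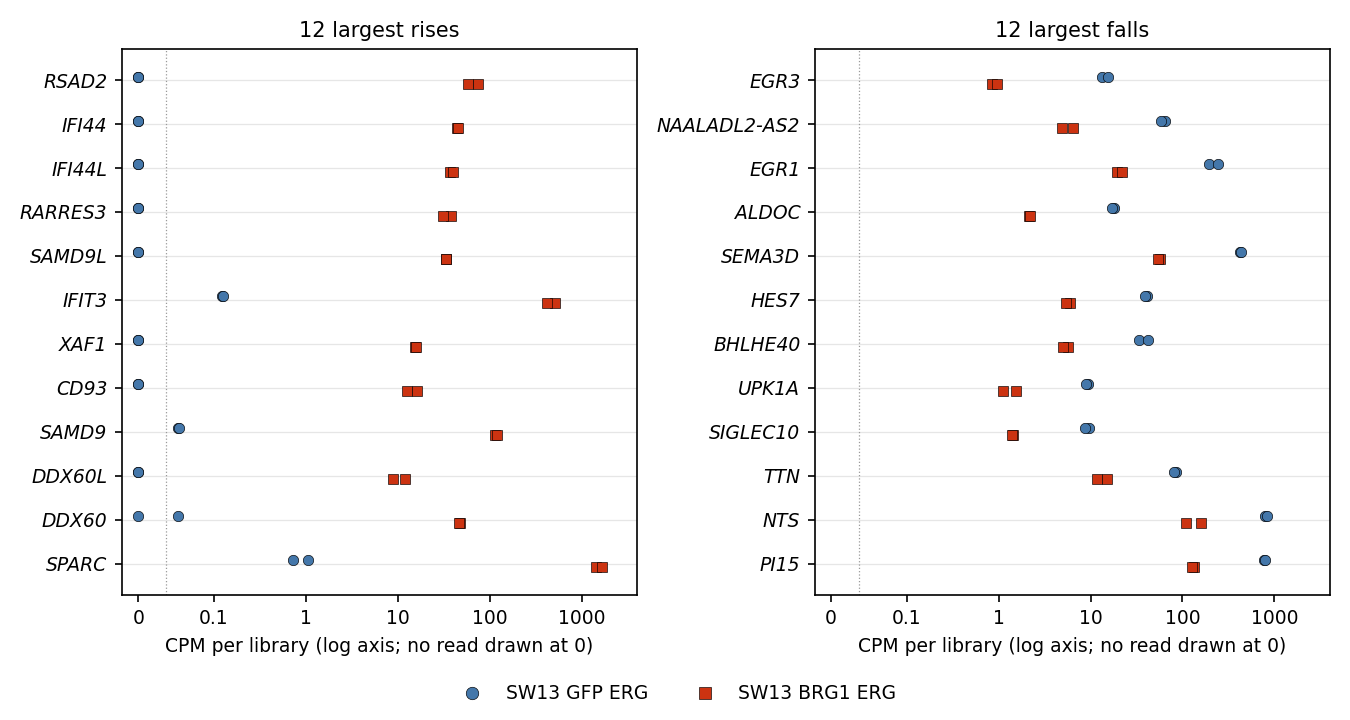
CPM in each library of the 12 largest rises and 12 largest falls with ERG present (blue circles, SW13 GFP ERG; red squares, SW13 BRG1 ERG; n = 2 each), on a log axis with libraries without a read at 0. In every gene the circles and squares are apart, and 8 of the 12 rises have both GFP libraries at 0.

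The interferon-stimulated list gave 29 rises and 1 fall among its 30 tested members, where 30.4% and 28.5% of all tested genes rose or fell. Those shares belong beside each list's rises and falls with BRG1 and ERG below, and counts near them say little about a list. Its median log2 change was 4.90, and 0.01 was that of all genes. The summed level of the 30 genes was 459 to 464 CPM in the GFP libraries and 4004 to 4532 CPM in the BRG1 libraries. IFIT2 stood at 0.769 and 0.711 CPM with GFP and 299 and 244 CPM with BRG1 (8.51 ± 0.15, adjusted p = 2.66e-30), and IFIT1 at 1.25 and 1.80 and 429 and 355 CPM (8.00 ± 0.14). IFI27, a mitochondrial interferon-induced protein, stood at 0.324 and 0.46 and 137 and 138 CPM (8.44 ± 0.15). The membrane protein tetherin (BST2) rose from 0.249 to 135 CPM and the oligoadenylate synthetase-like gene OASL from 0.226 to 194 CPM.

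Sensors and signalling parts of this system are also on the list. DDX58, which encodes the RNA sensor RIG-I, rose by 2.41 ± 0.09 and IFIH1, the gene of MDA5, by 4.34 ± 0.10. IRF9 and STAT2, which encode subunits of the interferon-activated factor ISGF3, rose by 2.99 ± 0.13 and 0.54 ± 0.08. IRF7, an interferon-induced factor, was the fall, from 2.18 and 1.30 to 0.466 and 1.31 CPM (-0.97 ± 0.36, adjusted p = 0.0222). That call at under 2 CPM was lost without GFP ERG 1 or BRG1 ERG 1. Among 16 MHC class I presentation genes, 14 rose, 1 fell and 1 was not called (median 1.21). B2M, the light chain of class I molecules, stood at 188 and 179 CPM with GFP and 552 and 557 CPM with BRG1 (1.60 ± 0.07, adjusted p = 6.65e-19). The immunoproteasome gene PSMB9 rose by 2.34 ± 0.13, the peptide-trimming enzyme gene ERAP2 by 5.23 ± 0.14 and HLA-B by 2.22 ± 0.11. Class I heavy chain genes resemble one another, so the split of their reads is uncertain.

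Inflammatory genes were divided. Of 16 tested NF-kB targets and cytokines, 9 rose, 5 fell and 2 were not called (median 0.97, or 0.60 with the gene without GFP reads at its bound). Without either GFP ERG library 3 fell. The chemokine gene CCL5 rose from 0.243 and 0.251 to 194 and 153 CPM (9.43 ± 0.19, adjusted p = 1.53e-28), and TNFAIP3, a feedback inhibitor of NF-kB, from 3.36 and 2.43 to 31.9 and 36.2 CPM (3.55 ± 0.14). NFKBIA, the gene of the inhibitor IkB-alpha, rose by 1.20 ± 0.10. CCL2, another chemokine gene, had 0 and 1 reads with GFP and 99 and 68 with BRG1 (ratio 157, 95% interval 27.8 to 6241). The subunit genes NFKB1 (-0.44 ± 0.10), NFKB2 (-0.27 ± 0.07) and RELB (-0.62 ± 0.10) fell.

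Endothelial genes, among them known ERG targets, rose in 17 of 22 tested members, fell in 1 and were not called in 4, with a median log2 change of 2.93. Their summed level was 114 to 117 CPM with GFP and 299 to 353 CPM with BRG1. Receptors are given first. ROBO4, a vascular guidance receptor, had 2 and 1 reads with GFP and 599 and 732 with BRG1 (ratio 417, 95% interval 142 to 2026). KDR, the VEGF receptor, stood at 2.63 and 3.43 CPM with GFP and 20.0 and 27.1 CPM with BRG1 (2.96 ± 0.19, adjusted p = 5.28e-15), and TIE1, an angiopoietin receptor partner, at 0.526 and 0.376 and 10.1 and 13.2 CPM (4.67 ± 0.28). ENG, the TGF-beta co-receptor endoglin, rose by 2.90 ± 0.18 and FLT4, the lymphatic VEGF receptor gene, by 1.19 ± 0.08. In these 5 receptors both BRG1 libraries were above both GFP libraries.

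Among ligands, APLN, which encodes apelin, rose from 2.02 and 2.05 to 45.8 and 62.2 CPM (4.73 ± 0.16, adjusted p = 1.62e-22) and the Notch ligand gene DLL4 by 2.12 ± 0.15. The junction and surface genes rose from few reads: PECAM1 with a ratio of 73.0 (24.7 to 357), VWF, the von Willebrand factor gene, with 94.1 (25.7 to 782) and CDH5, the gene of VE-cadherin, with 42.3 (14.2 to 208). PLVAP, a protein of endothelial diaphragms, was at least 9.57-fold higher and the apelin receptor gene APLNR at least 7.98-fold. The factor gene SOX18 fell (-0.71 ± 0.17), and SOX17 had no read in the 4 libraries. TEK (-0.12 ± 0.10), EGFL7 (-0.14 ± 0.11), ICAM2 (0.32 ± 0.33) and CLDN5 (0.07 ± 0.55) were not called. In bulk RNA, more cells of a kind and more RNA per cell cannot be told apart.

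Of 22 tested ETS family genes, 10 rose, 5 fell and 7 were not called (median 0.29). The PEA3 group, ETV1, ETV4 and ETV5, fell as a whole. ETV4 stood at 87.4 and 88.1 CPM with GFP and 16.3 and 16.5 CPM with BRG1 (-2.42 ± 0.08, adjusted p = 4.5e-22), ETV1 at 153 and 154 and 50.6 and 50.5 CPM (-1.60 ± 0.07) and ETV5 at 204 and 203 and 129 and 124 CPM (-0.68 ± 0.07). ELK1, which acts with SRF (-0.81 ± 0.08), and the repressor gene ERF (-0.34 ± 0.07) were the other falls. ELF1 (0.78 ± 0.09) and ELF4 (0.60 ± 0.08) rose. PEA3 factors are common targets of ERK signalling, and so are the immediate early genes, but ERK activity was not tested here.

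Of 14 tested AP-1 and immediate early genes, 3 rose, 8 fell and 3 were not called (median -0.39), and without GFP ERG 2 the falls were 5. Beside EGR1 and EGR3, FOS (-0.90 ± 0.17), JUNB (-0.91 ± 0.09) and FOSL1 (-0.37 ± 0.13) fell. JUN went the other way, from 6.15 and 6.44 CPM with GFP to 80.4 and 88.8 CPM with BRG1 (3.75 ± 0.11, adjusted p = 3.19e-24), and so did ATF3, a stress-induced factor, from 0.162 and 0.335 to 16.0 and 14.7 CPM (5.93 ± 0.27). FOSL2 rose by 0.74 ± 0.08. The feedback inhibitors of ERK were split: 6 rose, 5 fell and 3 were not called of 14. The ERK phosphatase gene DUSP6 fell from 711 and 739 to 318 and 289.8 CPM (-1.26 ± 0.07, adjusted p = 7.2e-16), with SPRED2 (-0.99 ± 0.07), while DUSP5 rose from 9.10 and 10.8 to 36.3 and 32.8 CPM (1.80 ± 0.13) and PHLDA1 by 2.83 ± 0.22.

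Genes reported to return when BRG1 is put back into BRG1-deficient lines rose in 12 of 12 tested members, with a median log2 change of 4.54. The adhesion molecule gene CEACAM1 stood at 3.68 and 3.76 CPM with GFP and 113 and 120.5 CPM with BRG1 (4.97 ± 0.12, adjusted p = 6.55e-26), and the gelatinase gene MMP2 at 0.526 and 1.09 and 28.3 and 30.9 CPM (5.20 ± 0.18). CD44, the hyaluronan receptor gene, had 1 and 0 reads with GFP and 312 and 312 with BRG1 (ratio 587, 95% interval 105 to 23218). CDH1, the gene of E-cadherin, rose only from 0.267 to 2.01 CPM (2.89 ± 0.36). Earlier reports of BRG1-deficient lines chose this list, so its direction was known.

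Matrix genes rose broadly. Of 24 collagens and matrix genes, 17 rose, 4 fell and 3 were not called (median 1.25). COL5A2, a fibrillar collagen gene, stood at 3010.1 and 2903 CPM with GFP and 7039 and 8089.5 CPM with BRG1 (1.36 ± 0.08, adjusted p = 1.97e-16). THBS1 (thrombospondin-1) rose from 1.29 and 0.836 to 28.4 and 30.7 CPM (4.78 ± 0.18) and FBN1, the microfibril gene fibrillin-1, from 18.6 and 17.9 to 57.4 and 74.6 CPM (1.86 ± 0.10). The basement membrane collagen genes COL4A1 (0.205 to 8.83 CPM, 5.39 ± 0.34) and COL4A2 (0.0829 to 6.47 CPM, 6.21 ± 0.43) rose together. COL3A1 fell from 458 to 181 CPM (-1.34 ± 0.08), LUM, a small proteoglycan gene, from 3.29 to 0.291 CPM (-3.48 ± 0.37) and FBN2, the gene of fibrillin-2, from 136 to 76.2 CPM (-0.84 ± 0.08).

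Of 23 matrix proteases and inhibitors, 16 rose, 5 fell and 2 were not called (median 0.95). The inhibitors SERPINE2 (3.52 and 3.35 to 62.1 and 67.8 CPM, 4.24 ± 0.12), TIMP3 (0.0809 and 0.251 to 23.0 and 27.5 CPM, 7.22 ± 0.27) and TIMP2 (0.95 ± 0.07) rose. The plasminogen activator genes PLAU (2.73 ± 0.12) and PLAT (3.59 ± 0.29) rose with them. The stromelysin genes MMP3 (-2.32 ± 0.29) and MMP10 (-1.54 ± 0.08) fell. In the TGF-beta, activin and BMP list, 19 rose, 3 fell and 8 were not called of 30 (median 0.61). LTBP1, which tethers latent TGF-beta to the matrix, stood at 4.77 and 6.06 CPM with GFP and 182 and 228 CPM with BRG1 (5.24 ± 0.12, adjusted p = 2.74e-27). The BMP antagonist gene NOG rose from 3.40 and 3.76 to 48.0 and 50.9 CPM (3.79 ± 0.12).

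By role in TGF-beta signalling, the ligand genes TGFB1 (-1.05 ± 0.07) and TGFB3 (-0.42 ± 0.09) fell, and TGFB2 (0.21 ± 0.10) was not called. The receptor gene TGFBR2 rose from 0.675 to 4.64 CPM (2.77 ± 0.27) and TGFBR1 by 0.72 ± 0.08. The effector SMAD3 (1.71 ± 0.09), the inhibitors SMAD6 (1.30 ± 0.08) and SMAD7 (1.63 ± 0.10), and the target ID1 (1.03 ± 0.07) rose. TGFBI, a secreted TGF-beta target, had no read with GFP and 7.11 and 5.24 CPM with BRG1, at least 50.0-fold higher.

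Epithelial genes rose in part. Of 25 tested keratins and junction genes, 13 rose, 4 fell and 8 were not called (median 1.10, or 0.79 with genes without GFP reads at their bounds). The simple keratins KRT8 (0.85 and 0.711 to 58.9 and 44.7 CPM, 6.04 ± 0.18, adjusted p = 7.32e-24) and KRT18 (1.54 and 1.59 to 107 and 74.4 CPM, 5.85 ± 0.16), which pair in the filaments of simple epithelia, rose together. Many processed copies of both exist, so their reads are uncertain. KRT80 had 0 and 1 reads with GFP and 236 and 227 with BRG1 (ratio 435, 95% interval 77.8 to 17237). JUP, the gene of plakoglobin, fell (-1.04 ± 0.07), with TJP3 (-1.32 ± 0.29), EPCAM (-1.05 ± 0.44) and OCLN (-0.47 ± 0.08).

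Of 17 laminin-332, hemidesmosome and integrin genes, 11 rose, 4 fell and 2 were not called (median 1.70, or 1.21 with bounds). The integrin genes ITGA3 (40.9 and 40.9 to 141 and 153 CPM, 1.85 ± 0.08) and ITGA6 (63.7 and 67.5 to 135 and 168 CPM, 1.21 ± 0.08) rose. LAMB3, a laminin-332 chain gene, was at least 32.3-fold higher, from no read to 4.00 and 3.97 CPM. Linkers between hemidesmosomes and filaments fell, PLEC (plectin) from 484 to 246 CPM (-0.98 ± 0.08), DST (dystonin) from 1026 to 545 CPM (-0.91 ± 0.09) and so did the hemidesmosome integrin gene ITGB4 (-1.20 ± 0.15).

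Of 11 tested EMT regulators and mesenchymal genes 7 rose (median 0.77). These were ITGA5, the fibronectin receptor gene (1.70 ± 0.08), the collagen cross-linker gene LOXL2 (1.78 ± 0.10), the repressors ZEB1 (23.2 and 26.1 to 45.4 and 52.5 CPM, 0.99 ± 0.10) and SNAI1 (0.77 ± 0.20), CDH2, S100A4 and FOXC2. Of 13 other intermediate filament genes, 8 rose, 3 fell and 2 were not called. Vimentin (VIM) rose from 53.3 and 55.4 to 115 and 112 CPM (1.06 ± 0.08), SYNM, the gene of synemin, by 1.45 ± 0.08 and lamin A/C (LMNA) by 0.79 ± 0.08, while LMNB1 (-0.61 ± 0.07) and LMNB2 (-0.41 ± 0.07) fell. YAP and SRF targets were mixed, with 9 higher and 7 lower of 21 (all tested genes: 30.4% and 28.5%). TAGLN, an actin-binding protein gene, rose from 20.5 and 22.2 to 219.9 and 179 CPM (3.22 ± 0.10), TPM1 (tropomyosin) by 2.51 ± 0.08 and CYR61 by 2.38 ± 0.08. CTGF (-0.92 ± 0.07), VCL, the gene of vinculin (-0.50 ± 0.07), and SRF itself (-0.68 ± 0.07) fell.

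Proliferation genes were lower with BRG1. Of 22 mitotic genes 21 fell and CCNB2 (-0.17 ± 0.09) was not called, with a median log2 change of -0.47. MKI67, the gene of the Ki-67 antigen, stood at 752 and 730.2 CPM with GFP and 375 and 395 CPM with BRG1 (-0.94 ± 0.07, adjusted p = 1.91e-13). The mitotic kinase gene PLK1 fell from 135 and 128 to 69.4 and 53.8 CPM (-1.09 ± 0.09), the checkpoint kinase BUB1B from 88.6 and 85.5 to 43.2 and 40.5 CPM (-1.06 ± 0.08) and the regulator FOXM1 from 143 to 85.0 CPM (-0.75 ± 0.07). In each of these both BRG1 libraries were below both GFP libraries.

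Of 23 DNA replication genes, 1 rose, 17 fell and 5 were not called (median -0.30). The helicase genes MCM6 (199 and 194 to 117 and 110.1 CPM, -0.79 ± 0.07) and MCM7 (-0.61 ± 0.07), the polymerase gene POLA1 (-0.72 ± 0.08) and the ribonucleotide reductase gene RRM1 (-0.67 ± 0.08) fell, and CCNE2 (0.39 ± 0.10) was the rise. CDK inhibitors and D-type cyclins moved up on the whole, with 9 of 13 higher (median 0.46). CDKN1A, the gene of p21, rose from 4.37 and 3.43 to 20.5 and 23.8 CPM (2.50 ± 0.16, adjusted p = 4.65e-15), CDKN2B (p15) by 1.24 ± 0.09, CDKN1C (p57) by 1.63 ± 0.24 and RB1 by 0.77 ± 0.08. Of 20 p53 targets, 13 rose, 3 fell and 4 were not called (median 0.43). GADD45A (5.62 and 4.22 to 27.4 and 28.0 CPM, 2.49 ± 0.13) and the antiproliferative gene BTG2 (14.7 ± 0.545 to 55.0 ± 2.82 CPM, mean ± SD, n = 2, log2 change 1.90 ± 0.10) rose, while MDM2 (-0.11 ± 0.08) and BAX (-0.13 ± 0.08) were not called. No cell counts or cycle phases were measured in these files.

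Glycolysis had the lowest median of the lists described here, -0.997. Of 23 tested glycolysis and hypoxia genes, 3 rose, 18 fell and 2 were not called. The glucose transporter gene SLC2A3 stood at 778 and 846 CPM with GFP and 164 and 158 CPM with BRG1 (-2.33 ± 0.08, adjusted p = 2.48e-22), and PFKFB4, which sets fructose 2,6-bisphosphate, at 69.1 and 70.4 and 12.2 and 12.4 CPM (-2.51 ± 0.10). LDHA, the lactate dehydrogenase gene, fell from 1065 to 354 CPM (-1.59 ± 0.08), PGK1 from 867 to 330.0 CPM (-1.39 ± 0.08) and GAPDH from 2294 to 1393 CPM (-0.72 ± 0.07). Of the hypoxia genes, the mitophagy gene BNIP3 fell from 423 and 439.7 to 117 and 104 CPM (-1.97 ± 0.10). NDRG1, PFKFB3 (0.28 ± 0.08) and ADM (0.31 ± 0.11) rose, NDRG1 from 1.38 and 1.30 to 19.0 and 20.4 CPM (3.88 ± 0.20).

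Cholesterol synthesis and stress lists had smaller medians than the interferon or collagen lists. Of 20 cholesterol synthesis genes, 16 rose, 0 fell and 4 were not called (median 0.54), among them SQLE, the squalene epoxidase gene (46.7 and 48.6 to 84.1 and 80.9 CPM, 0.79 ± 0.08), MSMO1 (0.87 ± 0.11), SC5D (0.75 ± 0.08) and IDI1 (0.68 ± 0.09). Of 17 ATF4 and unfolded protein genes, 13 rose (median 0.76). ATF4 stood at 101 and 98.4 CPM with GFP and 194 and 199 CPM with BRG1 (0.98 ± 0.08, adjusted p = 1.99e-12), and its target gene DDIT3 (CHOP) rose by 1.40 ± 0.09, HERPUD1 by 1.11 ± 0.09 and the chaperone gene HSPA5 (BiP) by 0.70 ± 0.07. ASNS, the asparagine synthetase gene, fell (-0.59 ± 0.09).

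Of 13 heat shock genes, 8 rose, 1 fell and 4 were not called (median 0.40). CRYAB, the small heat shock protein alpha-B crystallin, stood at 0.566 and 1.09 CPM with GFP and 765 and 737 CPM with BRG1 (9.83 ± 0.14, 907-fold, adjusted p = 9.3e-33). The large chaperones changed little beside it: HSPH1 by 0.64 ± 0.08, HSP90AA1 by 0.49 ± 0.07 and HSP90AB1, the fall, by -0.47 ± 0.07. Among 24 ribosomal protein genes, whose many processed copies make their reads uncertain, 19 were not called (median 0.04). Of the genes called, 4 rose, among them RPLP1 (0.18 ± 0.08) and RPS6 (0.21 ± 0.07), and the fall was RPS4X (-0.22 ± 0.07). The rises numbered 9 with library totals as the scale, 1 without GFP ERG 1 and 2 without BRG1 ERG 1, and the fall was lost without GFP ERG 2 or BRG1 ERG 2.

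BAF subunits other than the ATPases were mostly lower. Of 30 tested subunits, SMARCA4 included, 4 rose, 16 fell and 10 were not called (median -0.20). ARID1A, the large AT-rich subunit, stood at 306 and 321 CPM with GFP and 140.4 and 152 CPM with BRG1 (-1.10 ± 0.07, adjusted p = 2.67e-14). The core subunit gene SMARCC1 fell from 249.7 and 258 to 158 and 160.0 CPM (-0.67 ± 0.07) and GLTSCR1L (BICRAL), a subunit of noncanonical BAF, from 38.7 and 38.4 to 14.6 and 13.5 CPM (-1.46 ± 0.09). SMARCB1 (-0.15 ± 0.08) was not called, and DPF3 (2.48 ± 0.36) and BCL11B (0.96 ± 0.27) rose from low levels.

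Polycomb genes, whose complexes oppose BAF on chromatin, gave 7 rises and 9 falls among 23 (4 rises without GFP ERG 1 or BRG1 ERG 2). Of all tested genes 30.4% rose and 28.5% fell, so the 7 rises say little about Polycomb genes as a set. JARID2, a PRC2 cofactor gene, rose from 53.8 and 56.2 to 109 and 125 CPM (1.09 ± 0.08, adjusted p = 9.32e-14) and PHC2 by 1.07 ± 0.08, while PCGF2, a PRC1 subunit gene, fell from 144 to 68.1 CPM (-1.08 ± 0.08). EZH2, the PRC2 enzyme gene, rose by 0.53 ± 0.07 and its partner gene SUZ12 fell (-0.41 ± 0.08). Of 30 HOX genes, common Polycomb targets, 8 rose, 4 fell and 18 were not called (median 0.02). The rises include HOXD1 (31.3 and 32.0 to 62.6 and 65.3 CPM, 1.02 ± 0.08) and HOXB7 (0.95 ± 0.08).

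Neuronal and neuroendocrine secretory genes were lower: of 18 tested, 2 rose, 8 fell and 8 were not called (median -0.54). SYP, the synaptic vesicle gene synaptophysin, stood at 82.9 and 84.5 CPM with GFP and 19.9 and 16.8 CPM with BRG1 (-2.19 ± 0.09, adjusted p = 2.48e-20). The granin genes CHGB (50.2 and 54.4 to 15.0 and 15.1 CPM, -1.80 ± 0.09) and SCG2 (-0.77 ± 0.10), and the neuronal enolase gene ENO2 (-1.36 ± 0.08), fell with it. REST, the repressor of neuronal genes, rose (0.34 ± 0.07). Of 27 semaphorins, plexins, neuropilins and ephrins, 15 rose, 6 fell and 6 were not called (median 0.29). Receptors EPHB2 (19.3 and 20.9 to 129.7 and 149.8 CPM, 2.80 ± 0.08), NRP1 (0.162 and 0.293 to 10.7 and 12.7 CPM, 5.66 ± 0.30) and PLXNA2 (1.97 ± 0.14) and the ligand gene EFNB1 (2.17 ± 0.09) rose.

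Of 28 WNT genes, 11 rose, 6 fell and 11 were not called (all tested genes: 30.4% rose and 28.5% fell). Among receptors FZD4 (37.1 and 36.3 to 82.2 and 89.8 CPM, 1.23 ± 0.08) rose and FZD8 (-1.13 ± 0.08), LRP5 (-0.67 ± 0.07) and LRP6 (-0.91 ± 0.08) fell. The antagonist genes DKK1 (0.93 ± 0.07) and DKK3 (0.102 to 7.78 CPM, 6.17 ± 0.38) rose, and the feedback genes AXIN2 (-0.66 ± 0.14) and ZNRF3 (-0.67 ± 0.11) fell. Of 10 metallothioneins and zinc transporters, 5 rose, 3 fell and 2 were not called (3 rises without GFP ERG 2), with SLC30A3 higher (1.62 ± 0.13) and SLC39A10 lower (-0.79 ± 0.08).

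Of the marker lists for other cells, 8 adrenal genes were tested, with 2 rises and 5 falls (1 rise without GFP ERG 1, BRG1 ERG 1 or BRG1 ERG 2). CYP21A2 stood at 13.9 and 11.5 CPM with GFP and 18.1 and 19.5 CPM with BRG1 (0.56 ± 0.12), but it has a near-identical pseudogene. The nuclear receptor gene NR0B1 fell from 12 and 10 reads to 0 and 1. The 10 prostate genes tested summed to 114 to 115 CPM with GFP and to 125 CPM in both BRG1 libraries, and the 4 blood genes tested to 33.1 to 36.2 and 21.8 to 24.0 CPM. Nuclear-retained RNAs, a sign of RNA make-up, moved both ways: MALAT1 stood at 1274 and 1121 CPM with GFP and 1203 and 2003 CPM with BRG1 (0.42 ± 0.13, or 0.01 without BRG1 ERG 2), and NEAT1 at 1150.1 and 1076 and 821 and 935 CPM (-0.34 ± 0.11, not called without GFP ERG 1 or BRG1 ERG 1). Their part in the results was not tested.

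**Figure D3:**
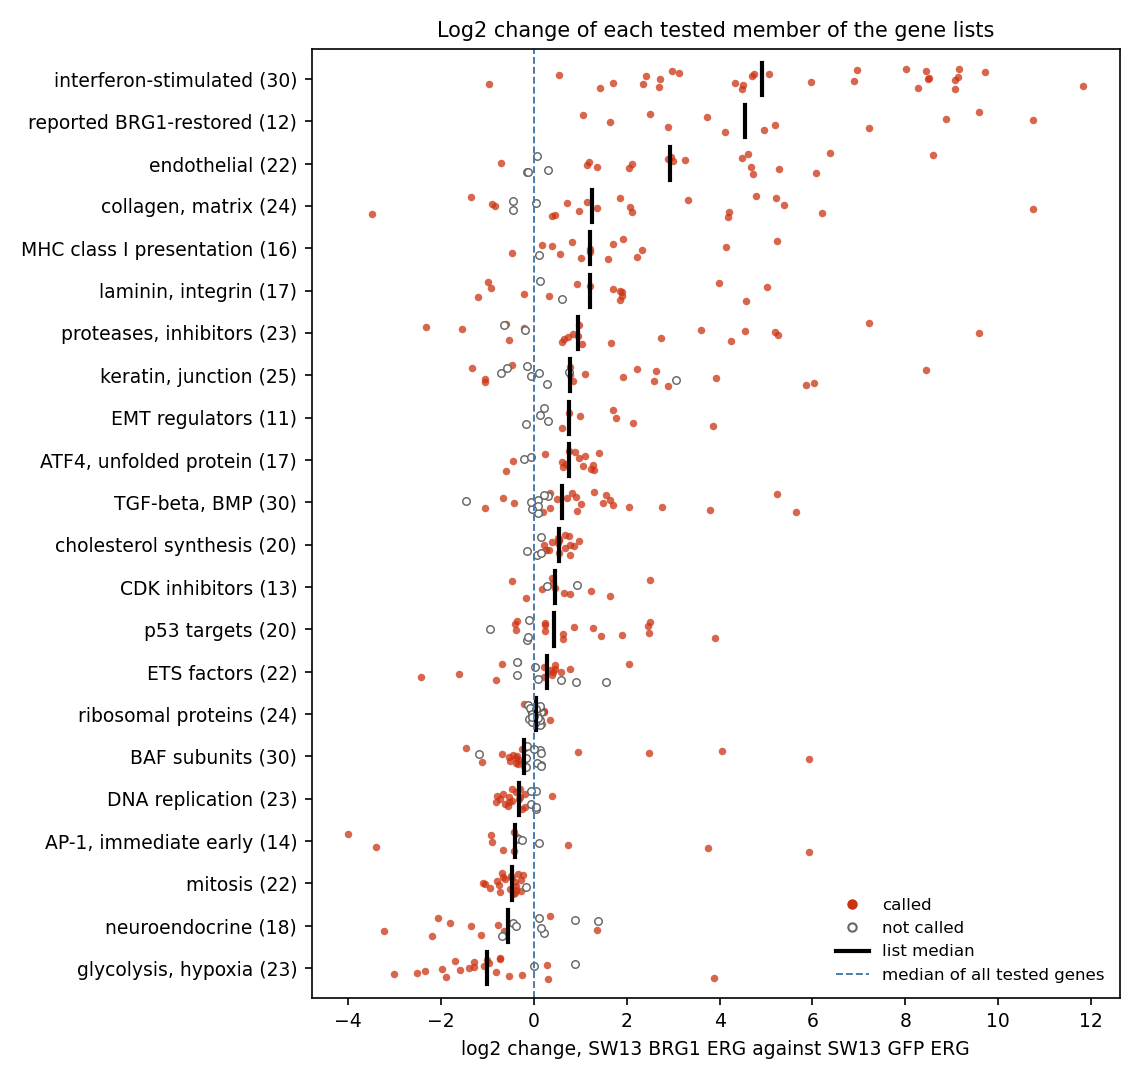
Log2 change with BRG1 against GFP, ERG present, for each tested member of 22 gene lists (number tested in brackets), with filled points called, open points not called, a black bar at the list median and a dashed line at 0.01, the median of all tested genes. Genes without a GFP read are drawn at their lower bound, except KRT5 (2 reads with BRG1), drawn at its fitted change. The interferon-stimulated list lies farthest right (median 4.90) and glycolysis farthest left (median -0.997).

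Setting the BRG1 effect with ERG beside that without ERG asks whether ERG changes the response. Without ERG, 10615 genes (62.4%) were called for BRG1 against GFP, 5478 higher (32.2%) and 5137 lower (30.2%). With library totals as the scale these were 6747 and 3792, and the median of all genes moved by 0.13. At 2-fold, 2168 rose (12.7%) and 546 fell (3.21%). The 2 comparisons share no library. Of the 1908 genes at least 2-fold higher with ERG, 1326 (69.5%) were also at least 2-fold higher without it, which is 61.2% of the 2168. Of the 856 at least 2-fold lower with ERG, 302 (35.3%) were so without it, or 55.3% of the 546.

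The difference of the 2 effects was called in 6437 genes (37.8%). It was above 0 in 3247 (19.1%) and below 0 in 3190 (18.7%), and with library totals 2405 were above and 4078 below, a split of 37.1% above in place of 50.4%. A difference of at least 2-fold was above 0 in 318 genes (1.87%) and below 0 in 753 (4.42%). The endothelial list is the one with ERG's known targets. Among endothelial genes the difference was above 0 in 9 of 22, below in 1 and not called in 12. Their median change was 2.93 with ERG and 1.34 without. The summed level of the endothelial list was 91.7 to 97.5 CPM with GFP and 82.6 to 85.6 CPM with BRG1 where ERG was missing. BRG1 without ERG still raised 11 of the 22, lowered 4 and left 7 not called, where 32.2% of all tested genes rose and 30.2% fell. ROBO4 was among these rises, from no read to 30 and 38 reads, and its difference was not called (0.68 ± 1.31).

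KDR showed the contrast in single libraries. It stood at 1.72 and 2.48 CPM with GFP and 0.715 and 1.36 CPM with BRG1 without ERG, and at 3.03 and 23.6 CPM on average with ERG. The BRG1 change was -1.03 ± 0.30 without ERG and 2.96 ± 0.19 with it, a difference of 3.99 ± 0.36 (adjusted p = 4.65e-10), so BRG1 was lower than GFP in the first pair and higher in the second. APLN stood at 1.18 and 1.32 CPM with GFP and 2.11 and 1.66 CPM with BRG1 without ERG, and its difference was 4.13 ± 0.35 (adjusted p = 1.49e-10). The groups overlap in neither gene with ERG.

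The other genes with the largest differences above 0 were RARRES3, IFI44, APOL3, SGK1, EXOC3L1 and RNA5-8S5, chosen among called genes whose mean over the 8 libraries was 5 CPM or more. SGK1, a kinase induced by serum and glucocorticoids, stood at 0.634 and 0.867 CPM with GFP and 1.75 and 1.89 CPM with BRG1 without ERG, and at 0.566 and 1.00 and 31.5 and 36.1 CPM with ERG (difference 4.16 ± 0.42, adjusted p = 4.13e-09). EXOC3L1, an exocyst-like gene, stood at 0.929 and 0.717 CPM with BRG1 alone and 31.4 and 43.5 CPM with BRG1 and ERG (difference 4.08 ± 0.50, adjusted p = 1.65e-07). In both, the BRG1 ERG libraries were more than 10 CPM above every other library of these 4 groups.

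For the interferon-induced genes RARRES3, IFI44 and APOL3, BRG1 libraries held 5.33 and 5.44, 7.97 and 10.3, and 4.29 and 3.47 CPM without ERG in that order, below their levels with ERG. RARRES3 and IFI44 lost the call without GFP Empty 2, and APOL3 without either GFP Empty library, either GFP ERG library or BRG1 Empty 2. APOL3 reached 71.6 and 74.2 CPM with BRG1 and ERG. Their GFP libraries held 0 to 2 reads each, so that the fitted differences rest on almost no reads. The RNA5-8S5 difference (an rRNA gene with many copies) rests on 19.3 and 295 CPM in the GFP Empty libraries and 34.8 and 289.6 CPM in the BRG1 ERG libraries, was 3.65 and became 0.62 without GFP Empty 2 and 1.43 without BRG1 ERG 2, uncalled in both.

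Differences below 0 were largest in SLCO2A1, IGFN1, ADAMTS15, COL17A1, TNS3, ALDOC, SYT12 and HAPLN3. In all but ALDOC, BRG1 raised the level more without ERG than with it. HAPLN3, a hyaluronan link protein gene, stood at 1.72 and 1.12 CPM with GFP and 78.5 and 80.2 CPM with BRG1 without ERG, against 1.86 and 1.55 and 15.2 and 15.5 CPM with ERG (difference -2.65 ± 0.28, adjusted p = 8.17e-09). TNS3, a focal adhesion gene (tensin-3), stood at 44.7 and 44.9 CPM with BRG1 alone and 13.2 and 12.2 CPM with BRG1 and ERG (difference -3.30 ± 0.58, adjusted p = 3.62e-05).

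SYT12, a synaptotagmin gene, rose without ERG from 1.90 and 2.19 to 18.3 and 17.9 CPM and was not called with it (0.49 ± 0.22, adjusted p = 0.0568). COL17A1, a hemidesmosome collagen gene, stood at 42.6 and 39.3 CPM with BRG1 alone and 4.24 and 3.81 CPM with BRG1 and ERG (difference -3.46 ± 0.82, adjusted p = 0.00118; -1.61 and not called without GFP ERG 1). The secreted protease gene ADAMTS15 (-3.64 ± 0.60) and IGFN1 (-3.94 ± 0.75) followed the same order, as did the prostaglandin transporter gene SLCO2A1 (21.5 and 24.3 CPM with BRG1 alone), whose GFP libraries held at most 1 read and whose difference was not called in most of the alternatives. The BRG1 change of ALDOC was -3.01 ± 0.16 with ERG and -0.28 ± 0.13 without it (difference -2.72 ± 0.21, adjusted p = 2.19e-11).

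**Figure D4:**
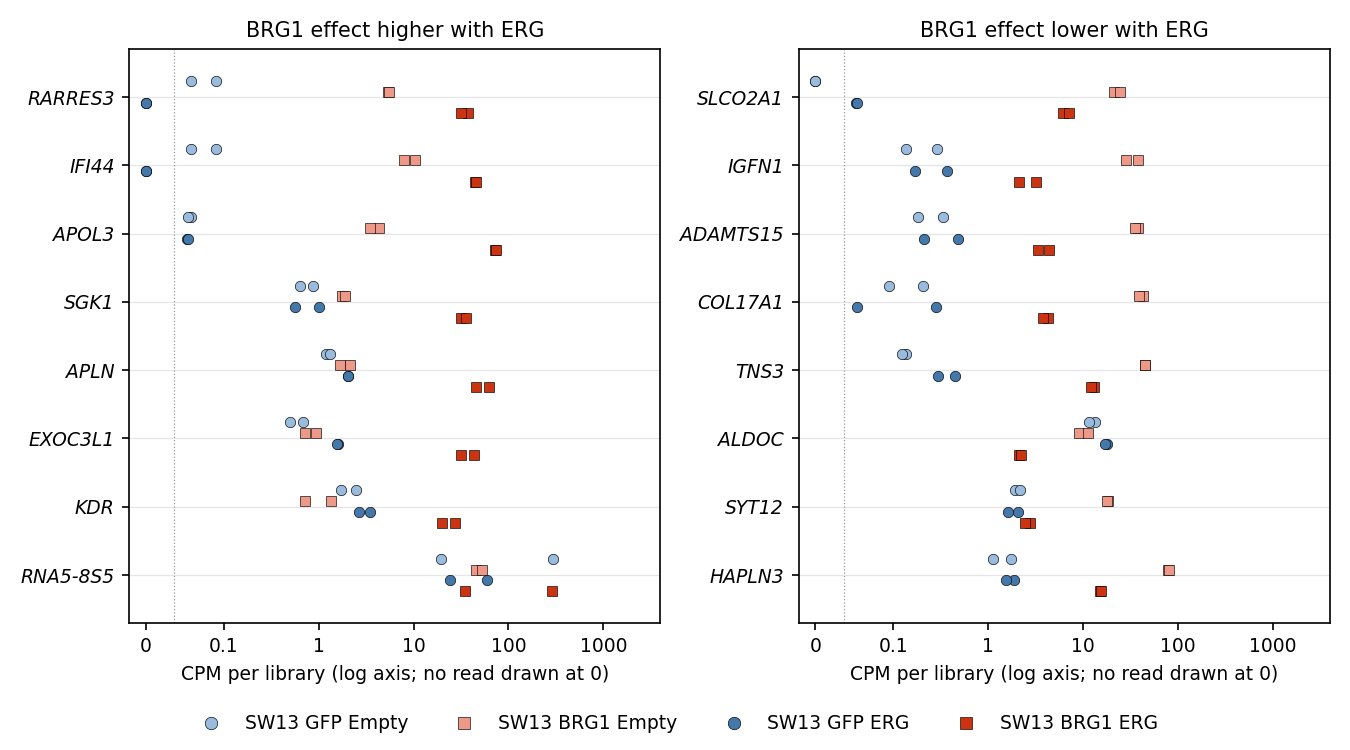
CPM in each library (log axis, libraries without a read at 0) of the 8 genes with the largest BRG1 effect differences above 0 (left) and below 0 (right), for SW13 GFP Empty, BRG1 Empty, GFP ERG and BRG1 ERG (n = 2 each). On the left, KDR and APLN with BRG1 stand above the other groups where ERG is present, and on the right HAPLN3 and TNS3 with BRG1 are higher where ERG is missing; RNA5-8S5 is uneven within groups.

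Over the gene lists the pattern varied. Ribosomal protein genes had a called difference above 0 in 22 of 24 members, with a median BRG1 change of -0.47 without ERG and 0.04 with it, while library totals moved the median difference of all genes by -0.10. Heat shock genes had 10 of 13 above 0 (medians -0.11 without ERG and 0.40 with it), and MHC class I genes 10 of 16, with B2M at 0.35 ± 0.07 and 1.60 ± 0.07. Laminin, hemidesmosome and integrin genes had 8 of 17 below 0 and 3 above, YAP and SRF targets 12 of 21 below and 4 above, and axon guidance genes 14 of 27 below and 4 above. Mitotic genes had 7 of 22 below 0 and none above. Most fell without ERG as well, with 16 of 22 lower and 1 higher (medians -0.38 without ERG and -0.47 with it). MKI67 was among the 7 below 0 (0.17 ± 0.07 without ERG and -0.94 ± 0.07 with it). Interferon-stimulated genes rose under both conditions, 30 of 30 without ERG and 29 of 30 with it, with medians of 5.20 and 4.90 and summed BRG1 levels of 2023 to 2286 and 4004 to 4532 CPM. The difference was called above 0 in 9 and below in 3. ARID1A fell with ERG (-1.10 ± 0.07) and not without it (-0.09 ± 0.07, adjusted p = 0.274), with a difference of -1.01 ± 0.10 (adjusted p = 7.13e-09).

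BRG1-K785R with ERG asks which changes need the ATPase of BRG1. SMARCA4 reads were fewer with the mutant, 1385 and 1350.4 CPM, and BRG1 was higher by 0.59 ± 0.08 (adjusted p = 1.23e-07), so dose and activity cannot be told apart. ERG was also higher with BRG1 than with the mutant (0.35 ± 0.08, adjusted p = 0.000462). The part of this in the differences below was not tested. BRG1 differed from BRG1-K785R in 7992 genes (47.0%), 4138 higher (24.3%) and 3854 lower (22.6%). At 2-fold 1465 were higher (8.61%) and 308 lower (1.81%). Against the same GFP libraries, BRG1-K785R gave 6887 calls (40.5%), with 551 rises (3.24%) and 472 falls (2.77%) of at least 2-fold, and 3483 (20.5%) and 3404 (20.0%) of any size. The 2 comparisons with GFP share their control libraries, so their values are set side by side and no overlap is given.

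By the fitted change, the excess of BRG1 over the mutant was largest in SAMD9L, XAF1, GJA5, APOL3, RSAD2 and SAMD9. With almost no mutant reads, the fitted size and the order of these genes are not measured, and genes with mutant reads, such as IFIT3 (679.6-fold), IFIT1 (486-fold) and SPARC (376-fold), could stand above some of them. SAMD9L and XAF1 had no read in either BRG1-K785R library, and neither had GJA5, the gap junction gene connexin 40, which stood at 13.7 and 16.8 CPM with BRG1. APOL3 had 1 and 0 reads with the mutant, RSAD2 1 and 0 and SAMD9 0 and 2. All 6 were called, with RSAD2 at adjusted p = 2.28e-23 and GJA5 at adjusted p = 7.17e-18. The mutant libraries thus held 0 to 2 reads each of these genes.

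The interferon-stimulated list had a median change of 0.29 with BRG1-K785R against 4.90 with BRG1, both over GFP, and 29 of 30 members were higher with BRG1 than with the mutant. With the mutant 9 members were above GFP and 5 below, and its summed level was 419 to 431 CPM. Endothelial genes had a median of 0.00 with the mutant and 2.93 with BRG1, and 18 of 22 were higher with BRG1. KDR stood at 2.82 and 2.72 CPM with the mutant and APLN at 15.2 and 15.5 CPM. APLN was thus also above its GFP level with the mutant (2.91 ± 0.17, adjusted p = 1.52e-14), and KDR was not (-0.13 ± 0.25, adjusted p = 0.716). All 12 BRG1-restored genes were higher with BRG1 than with the mutant, and medians over GFP were 1.26 and 4.54.

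The genes lowest with BRG1 against the mutant were TERT, RGS4, PI15, NTS, HES7 and POT1-AS1. TERT, the telomerase catalytic subunit gene, stood at 13.7 and 13.5 CPM with GFP, 13.2 and 15.4 CPM with BRG1-K785R and 3.11 and 2.85 CPM with BRG1 (BRG1 against the mutant -2.26 ± 0.16, adjusted p = 2.7e-13). RGS4, a brake on G protein signalling, stood at 52.0 and 56.8, 42.8 and 37.0 and 11.9 and 10.4 CPM in that order (-1.84 ± 0.12, adjusted p = 4.43e-14). For TERT the mutant and GFP libraries overlapped, and for RGS4 the mutant lay below GFP and above BRG1. NTS (491 and 432 CPM with the mutant) and PI15 (476 and 435 CPM) were between the other groups, and so was HES7 (16.6 and 21.5 CPM). POT1-AS1 is antisense, with the limit on strand given above.

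**Figure D5:**
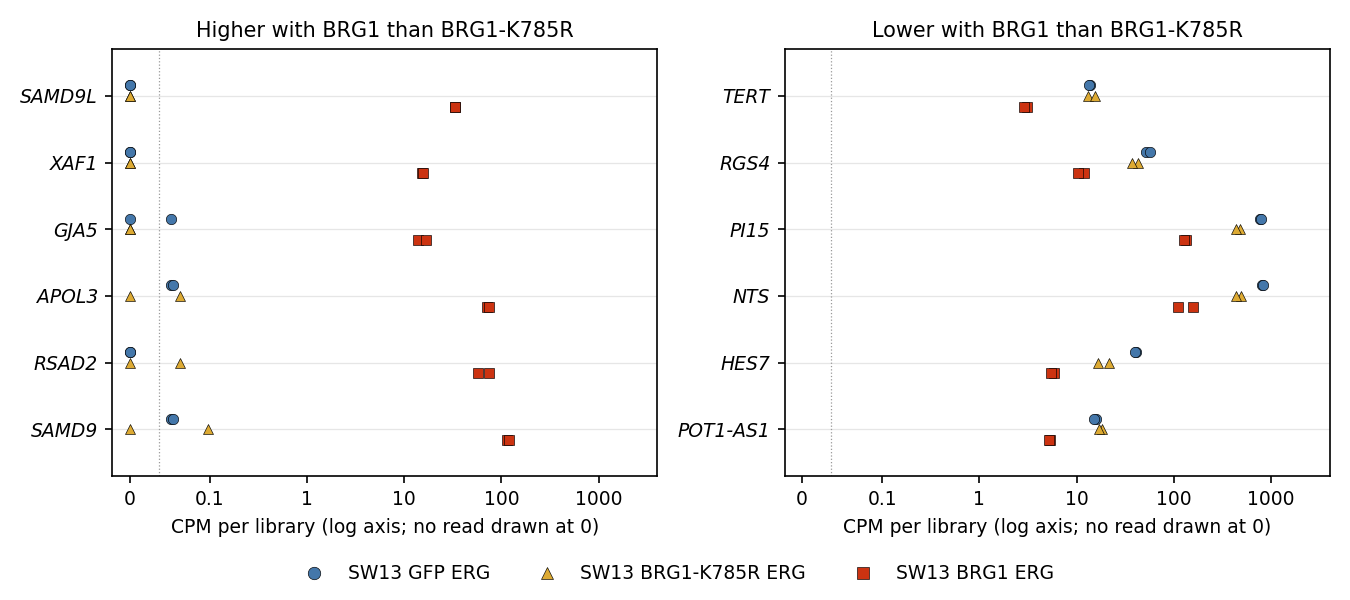
CPM in each library (log axis, libraries without a read at 0) with ERG present for the 6 genes highest and the 6 lowest by the fitted change with BRG1 against BRG1-K785R (blue circles GFP, yellow triangles BRG1-K785R, red squares BRG1; n = 2 each). On the left the mutant lies with GFP near 0, and on the right TERT with the mutant overlaps GFP while RGS4, NTS, PI15 and HES7 lie between.

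Some falls came with the mutant as well. Glycolysis genes had a median change of -0.97 with BRG1-K785R and -0.997 with BRG1, each with 18 of 23 members lower than GFP, and BRG1 against the mutant had a median of 0.01, with 8 members higher, 4 lower and 11 not called. PFKFB4 stood at 10.8 and 10.2 CPM with the mutant and BNIP3 at 143 and 106 CPM, with 0.22 ± 0.12 (adjusted p = 0.113) and -0.18 ± 0.10 (adjusted p = 0.149) for BRG1 against the mutant. Neither difference was called, which does not show that the levels are equal. ALDOC was lower still with the mutant (0.99 and 1.19 CPM). Neuroendocrine genes had 9 of 18 lower than GFP with the mutant and 8 with BRG1. Heat shock genes were higher than GFP in 11 of 13 with the mutant and 8 of 13 with BRG1, and 9 of 13 were lower with BRG1 than with the mutant.

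Replication genes differed between the 2 proteins. With BRG1-K785R 7 of 23 were above GFP and 4 below, with BRG1 1 was above and 17 below, and 21 of 23 were lower with BRG1 than with the mutant (median -0.40). For mitotic genes 17 of 22 were lower with BRG1 than with the mutant. EGR1 stood at 58.6 and 66.5 CPM with the mutant, between GFP and BRG1, and EGR3 at 2.57 and 2.63 CPM.

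Promoter letters were compared for the sets of genes, as a description. Of the 17018 tested genes, 8503 had a single promoter entry. The 447 of these whose genes rose at least 4-fold held a median of 14 CpG, and 26 was the median for all 8503. The ETS letters CGGAAGT were in 2.24% of them and in 13.4% of all, the AP-1 letters TGANTCA in 10.1% and 4.82%, and the IRF letters AANNGAAA in 29.3% and 16.1%, counting both strands. Since most of these genes started low, the 353 under 1 CPM with GFP can be set beside 584 also under 1 CPM and not called. Levels below 1 CPM were not matched between these sets. The shares were then 2.27% and 4.79% for ETS, 28.0% and 15.8% for IRF, with medians of 11 and 15 CpG. The AP-1 letters were in 39 of the 353 and in 45 of the 584. The IRF letters had been chosen after promoter letters were seen, and interferon-stimulated genes stayed in the sets. The higher IRF shares are thus no independent result. A promoter can hold several of these motifs, and the letters of the AP-1, ETS and IRF motifs can overlap. The ETS letters hold a CG, and the sets differ in CpG. The part of CpG in the ETS shares was not tested. A low ETS share was not particular to rises: it was 1.59% in the 63 promoters of genes that fell at least 4-fold. At 2-fold it was 2.46% for rises and 8.18% for falls.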

How the data were processed

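Polyadenylated RNA of SW13 cells was sequenced as single 75 base reads, per the labels' protocols. The submitters' processing notes name STAR 2.3.1 and hg19. Which program counted the reads, with which annotation and whether by strand, was not given in the sources used here. Each deposited file holds, for 26346 genes, a gene length in bases, a whole-number read count and an RPKM value made by the authors. The RPKM recomputed from the count and length differed from the deposited RPKM by at most 5e-06 of its value, and only the counts were used from there.

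Groups were taken from the sample titles. All 12 SW13 libraries, 6 groups of 2, entered 1 fit with edgeR 4.0.16 in R 4.3.3: TMM scaling, filterByExpr by group (17018 genes kept), and the two-sided quasi-likelihood F test with Benjamini-Hochberg adjustment over all kept genes, called at an adjusted p below 0.05. The common biological coefficient of variation was 0.0571 with 6 residual degrees of freedom. The approximate standard error is the log2 change divided by the root of F. CPM uses the TMM library sizes. SW13 totals ran from 19754265 to 26595972 reads. Genes without a read in a group are given against a floor of 3 reads per library, and those with 1 to 3 reads as a ratio with a 95% interval, both for counting error only. On simulated counts the main comparison recovered 80.6%, 92.5% and 100% of genes changed 1.5-, 2- and 4-fold, with 11 false calls of 193 on 16504 genes. Only 67, 67 and 66 genes were changed by these folds, all averaging at least 1 CPM, with the same spread in every group. Recovery of genes under 1 CPM, and false calls where most genes change, were not simulated.

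Named genes were the 12 largest rises and falls that averaged 5 CPM or more and did not overlap, the 8 largest differences on each side, the 6 largest against BRG1-K785R on each side, up to 4 called genes of each list by adjusted p and further list members with their values. A few list members are counted but not reported by name here. The comparison, the gene lists and the rules were chosen with earlier results of these data known. Alternatives were RLE scaling, library totals, no filter, DESeq2 1.42.0, only the groups compared, the fit without BRG1-K785R Empty, a replicate block and each library left out. Promoters came from RefSeq (GRCh38.p14), a different build from that of the counts, and are matched by gene symbol.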

Additional observations from a re-analysis of the deposited data

Results flagged for a closer look

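The difference between the BRG1 effect with ERG and that without ERG was tested itself, as an interaction in the edgeR fit, and was called in 6437 genes. Of the named genes, it was above 0 (log2 scale) by 6.42 in RARRES3, 6.03 in IFI44, 4.29 in APOL3, 4.16 in SGK1, 4.13 in APLN, 4.08 in EXOC3L1, 3.99 in KDR and 3.65 in RNA5-8S5. It was -4.94 in SLCO2A1, -3.94 in IGFN1, -3.64 in ADAMTS15, -3.46 in COL17A1, -3.30 in TNS3, -2.72 in ALDOC, -2.65 in SYT12 and -2.65 in HAPLN3. For RARRES3, IFI44, APOL3 and SLCO2A1 the GFP libraries held 0 to 2 reads, so the size of these 4 values depends on how the fit treats single reads.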

How the results depend on the processing

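The 5 counts of called genes stayed within 1.5 times their value in every alternative run, and no direction of a named gene reversed. BRG1 against GFP with ERG gave 10032 calls, 8930 with DESeq2, 10055 with RLE scaling, 9983 with library totals and 8420 to 9174 with 1 library left out, where the lone sample of a group is assumed to vary like the others. The difference between the BRG1 effects gave 6437, 5484 with DESeq2 and 4867 to 6358 with 1 library left out, BRG1 against BRG1-K785R gave 7992, 6896 and 6466 to 7169, BRG1 against GFP without ERG 10615, 9485 and 8872 to 9718, and BRG1-K785R against GFP 6887, 5923 and 4905 to 5932. Library totals changed the split of calls by more than 10 percentage points for the difference (37.1% above 0, 50.4% with TMM) and for BRG1 without ERG (64.0% higher, 51.6% with TMM).

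Libraries with the same replicate number in the labels deviated together weakly at most: deviations of BRG1 ERG and GFP ERG correlated at r = -0.02. Over the 15 pairs of groups r ran from -0.10 to 0.12. With 2 libraries a group, this cannot show whether same-numbered libraries were handled together. With the number as a replicate block the counts of calls were 10005, 6409, 7944, 10585 and 6863, in the order above.

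Of 189 values of genes named by the rule 13 lost their call in some alternative, among them PTPRC, KCNQ1OT1, MALAT1, NEAT1, RPS4X and RPS6, and, for the difference, RARRES3, IFI44, APOL3, RNA5-8S5, SLCO2A1 and COL17A1; where fewer samples were used the test has less power, and otherwise the cause was not tested. Of 72 list counts 15 moved by more than 1.5 times, among them falls of the NF-kB list (5, or 3 with DESeq2). With 2 libraries a group of 23960454 to 25385623 reads, folds are least precise for genes with few reads, and 57.4% of the genes that rose 2-fold were under 1 CPM with GFP.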
